A study of Mus musculus with 9 samples.

Results

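Class I odorant receptors were examined as the 118 genes whose symbols are Olfr followed by a number from 543 to 692 with no suffix. They were taken from 1408 symbols beginning with Olfr and 55291 genes in all, and all 118 lie on chromosome 7. The first along the chromosome was Olfr543, which starts at 102476579, and the last was Olfr692, which ends at 105369355 (mm10, GENCODE M21). The labels give the RNA as that of mature olfactory sensory neurons, the nerve cells that detect odorants. The cells were taken from the main olfactory epithelium of mice and sorted for bright reporter fluorescence. Each mouse line carried a receptor allele joined to a reporter through an internal ribosome entry site, so that the reporter is made from the same transcript as the receptor. The groups were Olfr73-IRES-GFP, Olfr1507-IRES-GFP and Olfr160-IRES-mCherry, each with 3 libraries and 9 in all, and they are called Olfr73, Olfr1507 and Olfr160 below. The labels state no age, sex, strain or copy number of the tagged allele, and there was no group without a tag. The labels also do not say whether the 3 libraries of each line are different animals, so the p-values rest on the spread between these libraries alone, and that spread may be technical.

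Odorant receptors of mammals fall into class I, which resembles the receptors of fish, and class II, which makes up most of the family. Class I genes sit in a single large cluster, within which the beta-globin genes lie, and many of the receptors with known ligands respond to carboxylic acids and other hydrophilic odorants. A mature neuron as a rule transcribes a single receptor gene from a single allele, and class I neurons lie mainly in the dorsal part of the epithelium. All 3 tagged receptors belong to class II. Olfr73 and Olfr160 are chosen in dorsal neurons and Olfr1507 in ventral ones. Counts on class I genes in these libraries therefore come from transcripts other than the tagged receptor.

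Coding sequences were compared to check the class of the members. Of 116 members with a coding sequence long enough to compare, 114 had their closest receptor relative inside the chromosome 7 interval. The 2 exceptions were Olfr657, 95.6% identical to Olfr504, and Olfr658, 97.1% identical to Olfr503, and both of these relatives lie outside the interval. Of the receptors outside the interval, 1045 had their closest relative outside and 2 inside, and those 2 were Olfr503 and Olfr504 themselves. The members had 62 genes on the plus strand and 56 on the minus strand, and a median coding length of 951 bases. By annotation 115 were protein coding, Olfr663 and Olfr664 were polymorphic pseudogenes and Olfr687 was a transcribed pseudogene.

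Some neighbours are so alike that a read can match more than 1 of them, and 9 pairs were at least 96% identical over the coding sequence. The pairs printed here contain members on which later values turn, and the stretches show where reads can be told apart. Each stretch is 90 bases of the coding exon, written 5′ to 3′ on the coding strand from the GENCODE M21 transcripts (mm10), and capitals mark the bases that differ within the pair. Olfr679 (chr7:105086274-105086363 on the plus strand) and Olfr681 (chr7:105122015-105122104 on the plus strand) differed at 14 of 945 coding bases and were 98.5% identical. Olfr582 (chr7:103041850-103041939 on the plus strand) and Olfr584 (chr7:103085889-103085978 on the plus strand) differed at 36 of 957. Olfr666 (chr7:104893390-104893479 on the minus strand) and Olfr668 (chr7:104925526-104925615 on the minus strand) differed at 30 of 954. Olfr611 (chr7:103517868-103517957 on the minus strand) and Olfr612 (chr7:103538718-103538807 on the minus strand) differed at 24 of 969.
Olfr679: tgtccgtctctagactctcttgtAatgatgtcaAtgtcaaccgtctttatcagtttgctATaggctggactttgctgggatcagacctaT
Olfr681: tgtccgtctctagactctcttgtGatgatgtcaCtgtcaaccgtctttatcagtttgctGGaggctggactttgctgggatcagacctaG
Olfr582: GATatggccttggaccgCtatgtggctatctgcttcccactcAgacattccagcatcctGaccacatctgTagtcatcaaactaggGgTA
Olfr584: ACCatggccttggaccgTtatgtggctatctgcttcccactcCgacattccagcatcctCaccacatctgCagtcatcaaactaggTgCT
Olfr666: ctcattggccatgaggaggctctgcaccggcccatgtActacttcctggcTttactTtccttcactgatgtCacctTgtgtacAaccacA
Olfr668: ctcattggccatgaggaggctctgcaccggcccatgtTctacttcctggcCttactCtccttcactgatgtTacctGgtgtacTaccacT
Olfr611: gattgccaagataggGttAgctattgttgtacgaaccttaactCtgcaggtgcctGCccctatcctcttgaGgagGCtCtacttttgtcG
Olfr612: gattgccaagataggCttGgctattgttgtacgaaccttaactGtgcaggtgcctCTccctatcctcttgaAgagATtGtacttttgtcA

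The authors' counting gave fractional values where reads were divided between genes. Olfr679 and Olfr681 each had 4 fractional values among the 9 libraries, as did Olfr611 and Olfr612. Olfr582, Olfr584, Olfr666 and Olfr668 each had 1. The closest pair, Olfr596 and Olfr603 (99.5% identical), had 0, as did the other pairs not printed here. Olfr611 had 140.64, 85.82 and 4.14 counts in the Olfr160 libraries, and Olfr612 had 32.36, 30.18 and 252.86. The pair thus changed places between libraries 2 and 3. Values of single members of such pairs are uncertain to the extent that reads were shared. Exons of Olfr558, Olfr560, Olfr615, Olfr616, Olfr632, Olfr638, Olfr639, Olfr640 and Olfr643 overlap exons of other genes, and as no strand setting is given in the sources used here, reads there cannot be told apart.

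The libraries held 17212807 to 36230606 expected counts, and 3 counts corresponded to 0.0990 to 0.167 normalised CPM (counts scaled to a fixed effective library size). The tagged receptor took 22.8% to 32.8% of receptor counts in Olfr73, 85.1% to 94.7% in Olfr1507 and 2.08% to 10.1% in Olfr160. Markers of mature olfactory neurons (8 genes, all with counts) made up 4.96% to 5.12%, 7.65% to 7.93% and 2.82% to 4.41% of all counts in the same order of groups. A list of 10 sustentacular and gland cell markers, all with counts in each group, made up 0.393% to 0.773%, 0.0341% to 0.0588% and 2.41% to 4.93%. The 6 immature neuron markers, again all with counts, made up 0.0808% to 0.0929%, 0.0356% to 0.0428% and 0.140% to 0.161%. The dorsal enzyme gene Nqo1 had a mean ± SD (n = 3) of 809.8 ± 208 normalised CPM in Olfr73, 4.18 ± 3.16 in Olfr1507 and 729.9 ± 315 in Olfr160. Acsm4, the other dorsal enzyme gene listed, stood at 1432 ± 204, 5.74 ± 3.10 and 402 ± 126 in the same order. It was higher in Olfr73 than in Olfr160 (log2 change 1.83 with an SE of 0.34, edgeR adjusted p = 0.00941). The ventral marker Ncam2 stood at 6.35 ± 3.48, 33.4 ± 4.63 and 17.6 ± 5.78 in the same order. Ncam2 was lower in Olfr73 than in Olfr160 (log2 change -1.47 with an SE of 0.39, edgeR adjusted p = 0.0323). The 2 ventral markers, Ncam2 and Nrp2, made up 0.000976% to 0.00226%, 0.0135% to 0.0145% and 0.00432% to 0.00649% of all counts. The sustentacular and immature lists were highest in Olfr160 and lowest in Olfr1507 and the mature neuron list the reverse. In Olfr160, sustentacular and gland markers exceeded mature neuron markers in libraries 1 and 2 (4.09% against 2.82% and 4.93% against 3.44%). They did not in library 3 (2.41% against 4.41%). The Olfr160 libraries thus did not hold neuron transcripts alone. Lists of basal, respiratory, immune and red blood cell markers were also highest in Olfr160. The part of all these lists in the results below was not tested. In bulk libraries, fewer cells of a type and less RNA per cell cannot be told apart.

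Class I transcripts were found in all 9 libraries and were most abundant in Olfr160, lower in Olfr73 and lowest in Olfr1507. Summed over the 118 members, the Olfr160 libraries held 251.8, 378.0 and 270.0 normalised CPM. The Olfr73 libraries held 125.5, 146.5 and 88.4. The Olfr1507 libraries held 4.80, 37.0 and 11.3. No library of a group reached into the range of the next, and the group means were 299.9 ± 68.2, 120.1 ± 29.4 and 17.7 ± 17. The other untagged receptors followed the same order, at 6854 ± 708, 2407 ± 851 and 290 ± 129 normalised CPM. Among the 110 members with any count, 87 had their highest group mean in Olfr160, 22 in Olfr73 and 1, Olfr656, in Olfr1507.

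Relative to all untagged receptors, the class I part overlapped between the groups. It made up 3.59%, 4.74% and 4.18% of the counts on untagged receptors, pseudogene symbols included, in the Olfr160 libraries, 4.11%, 4.85% and 5.84% in the Olfr73 libraries and 2.68%, 7.95% and 4.04% in the Olfr1507 libraries. The ranges overlapped, with group means of 4.17 ± 0.575%, 4.94 ± 0.865% and 4.89 ± 2.74%. The 95% Wilson intervals of the Olfr1507 libraries ran from 2.18% to 3.29%, from 7.52% to 8.41% and from 3.53% to 4.62%, so these libraries differed from each other by more than counting error. Such intervals hold counting error alone, since reads copied by PCR are not independent molecules. The high share of Olfr1507 library 2 rested largely on Olfr656, which alone gave 537 of its 1122 class I counts.

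**Figure D1:**
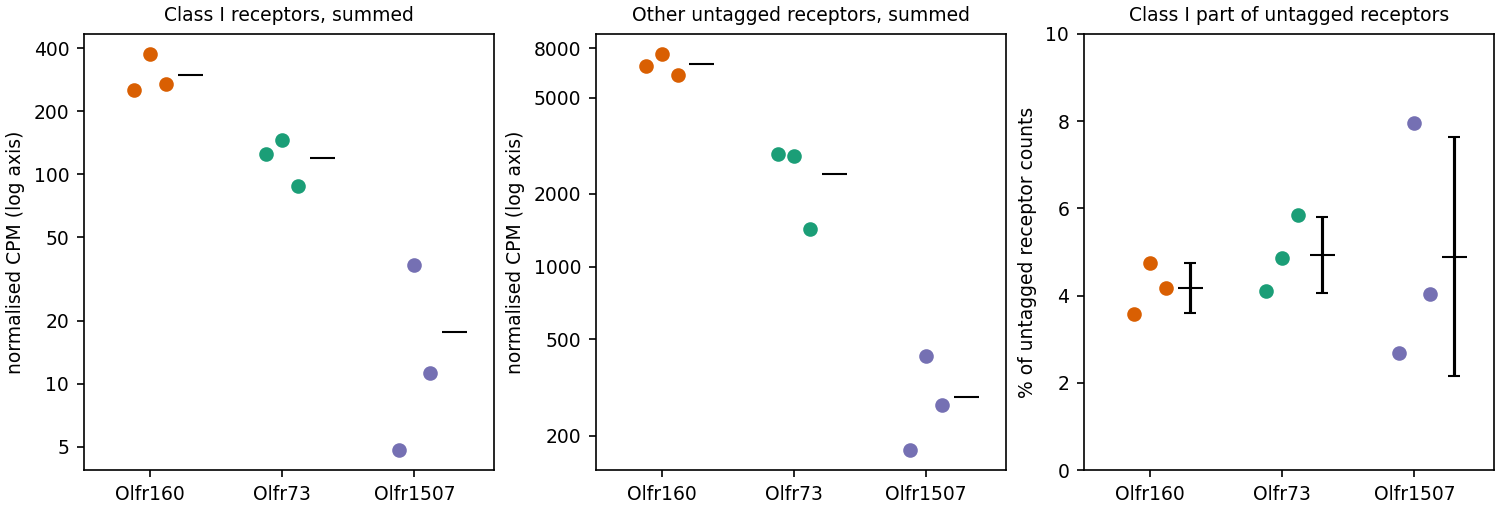
Summed level of the 118 class I receptors (left, normalised CPM, log axis), summed level of the other untagged receptors (middle, same unit, log axis) and class I share of untagged receptor counts (right, percent), by group. Points are libraries 1, 2 and 3 from left to right, dashes are group means and bars on the right are SD. Sums fall from Olfr160 to Olfr73 to Olfr1507 without overlap, while the shares overlap between 2.68% and 7.95%.

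A class I gene was on average less abundant than another untagged receptor gene. On the length-scaled TPM scale, the mean level per class I member was 2.32, 3.18 and 1.96 in the Olfr160 libraries, against 6.07, 6.57 and 5.43 per gene over the 996 other untagged receptors without a pseudogene suffix. In Olfr73 the means were 1.22, 0.980 and 0.673 against 2.48, 2.46 and 1.23. In Olfr1507 they were 0.0358, 0.182 and 0.0925 against 0.115, 0.307 and 0.171. The class I mean was the lower in each of the 9 libraries.

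Fewer class I members than other receptors were detected at 10 counts or more, and fewer were shared between libraries. In Olfr160, 72, 70 and 47 of the 118 members reached 10 counts. Those numbers were 38, 26 and 20 in Olfr73 and 1, 12 and 4 in Olfr1507. As shares, 61.0%, 59.3% and 39.8% of members were detected in the Olfr160 libraries, beside 69.3%, 71.5% and 57.3% of these 996 other receptors. The members' share was below that of the others in each of the 9 libraries. In Olfr160, 32 members were detected in all 3 libraries, 33 in 2, 27 in 1 and 26 in none. In Olfr73 the same classes held 4, 14, 44 and 56 members, and in Olfr1507 they held 0, 1, 15 and 102. Of members detected in any Olfr160 library 34.8% were detected in all 3, beside 60.3% of the other receptors. In Olfr73 these shares were 6.45% and 31.1%. The lower level per gene moves with this difference, and its part was not tested.

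**Figure D2:**
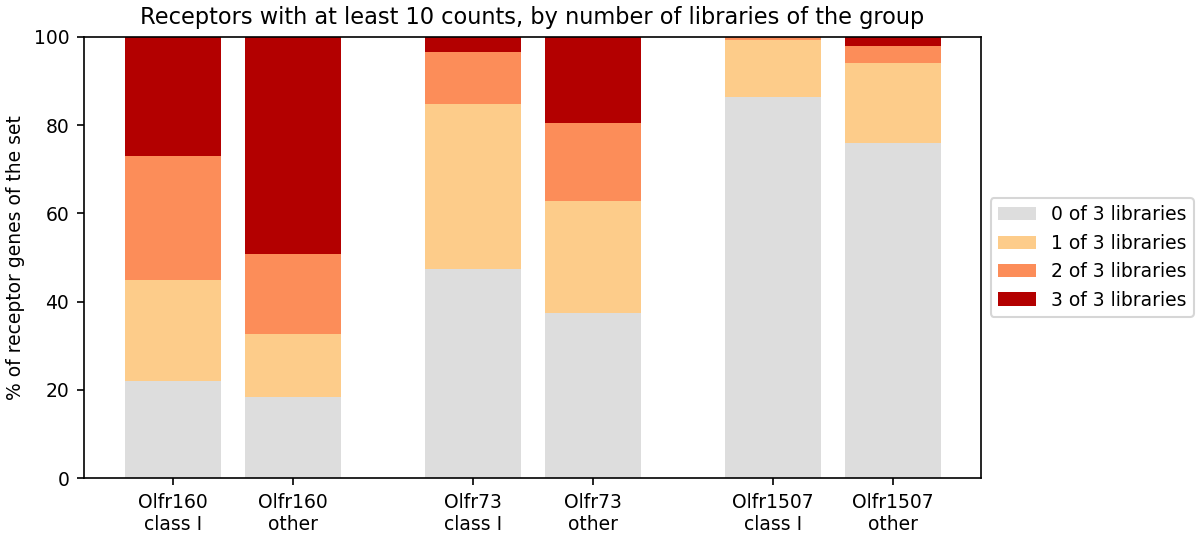
Share of receptor genes with at least 10 counts in 0, 1, 2 or 3 libraries of a group (vertical axis, percent), for the 118 class I members and the 996 other untagged receptors without a pseudogene suffix. Of the class I members 32 reached 10 counts in all 3 Olfr160 libraries, 4 in all 3 Olfr73 libraries and 0 in all 3 Olfr1507 libraries.

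In Olfr73 and Olfr1507 a few members carried 50% of the class I counts of a library, while in Olfr160 the counts were spread over more members. In Olfr73 library 1 the top member was Olfr672 with 643 counts, in library 2 it was Olfr685 with 661 and in library 3 it was Olfr582 with 429. These made up 22.5%, 21.1% and 22.6% of the class I counts of their libraries. In Olfr1507 the top members were Olfr652 with 55 counts, Olfr656 with 537 and Olfr550 with 67, or 61.8%, 47.9% and 33.2%. In Olfr160 they were Olfr672 with 366, Olfr685 with 863 and Olfr592 with 795, or 6.99%, 9.22% and 13.1%. The top member differed between the libraries of each group, but Olfr672 led library 1 and Olfr685 library 2 of both Olfr73 and Olfr160. It took 16, 12 and 9 members to reach 50% of the class I counts in the Olfr160 libraries, 5, 3 and 4 in the Olfr73 libraries and 1, 2 and 2 in the Olfr1507 libraries. For members with at least 30 counts in a group, the part of their summed normalised CPM held by the highest library was taken. Its median was 65.2% in Olfr160 (82 members), 94.2% in Olfr73 (42 members) and 100% in Olfr1507 (7 members). For the other receptors these medians were 55.0%, 76.1% and 77.1%.

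Along the cluster, transcripts came from both sides of the beta-globin genes. The 67 members before them had a summed TPM of 151.9 in Olfr160 and the 51 members after them 141.5, each taken as group means. In Olfr73 the sums were 51.0 and 62.0, and in Olfr1507 they were 3.43 and 8.77. Members with a mean TPM of at least 1 numbered 32 and 30 in Olfr160, 14 and 14 in Olfr73 and 1 and 3 in Olfr1507. The first side took 52.8%, 44.7% and 62.1% of class I TPM in the Olfr160 libraries, 52.5%, 26.1% and 59.4% in the Olfr73 libraries and 31.4%, 17% and 48.9% in the Olfr1507 libraries. The ranges of the groups overlapped. Another 8 members had 0 counts in all 9 libraries, namely Olfr564, Olfr574, Olfr583, Olfr643, Olfr663, Olfr664, Olfr687 and Olfr688. The annotated pseudogenes Olfr663, Olfr664 and Olfr687 were among them.

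**Figure D3:**
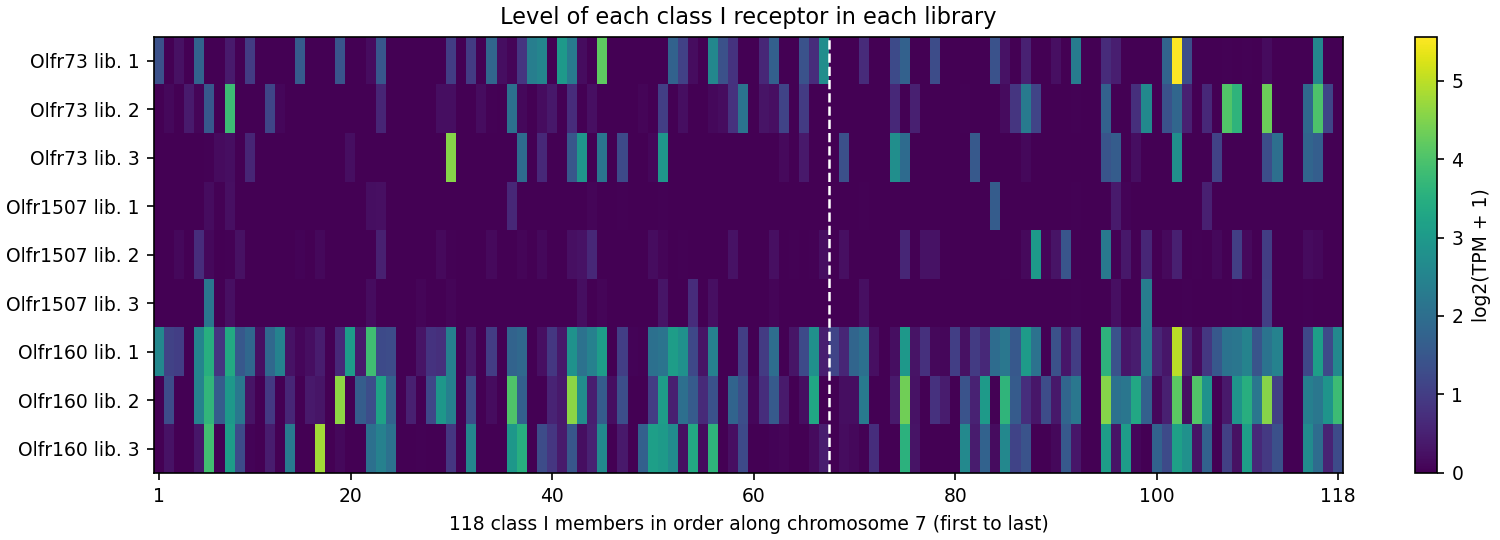
Level of each of the 118 class I members (columns, in order along chromosome 7) in each of the 9 libraries (lines), as log2(TPM + 1). The dashed line marks the place of the beta-globin genes, with 67 members before it and 51 after it. Bright columns differ between libraries of Olfr73 and Olfr1507, while more columns are lit in the Olfr160 libraries.

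The most abundant members were compared per length. In Olfr160 the 6 highest mean TPM values belonged to Olfr672 (18.5 ± 11.6), Olfr665 (13.6 ± 7.72), Olfr640 (12.4 ± 6.52), Olfr550 (11.8 ± 1.80), Olfr598 (10.4 ± 11.3) and Olfr561 (9.05 ± 15.2). Neighbours in this order did not differ beyond their SD. Olfr550 was the most even of them, at 10.14, 11.62 and 13.73 TPM. Olfr561 was the least even, at 0.35, 0.24 and 26.56 TPM, so that library 3 carried nearly all of it. In Olfr73 the highest were Olfr672 (18.2 ± 24.3), Olfr582 (7.91 ± 12.7), Olfr690 (7.37 ± 6.82), Olfr601 (6.90 ± 9.10), Olfr685 (6.84 ± 10.5) and Olfr679 (5.24 ± 9.05). Only Olfr690 had an SD below its mean. In Olfr1507 the highest were Olfr656 (2.31 ± 4.0), Olfr669 (1.54 ± 2.24), Olfr550 (1.25 ± 1.97), Olfr665 (1.25 ± 2.17), Olfr652 (0.693 ± 1.2) and Olfr685 (0.683 ± 0.592). Olfr656 came from library 2 alone and Olfr652 from library 1 alone.

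Several abundant members showed how far single libraries decide a level. Olfr685 had 98, 863 and 33 counts in Olfr160, 1, 661 and 58 in Olfr73 and 0, 60 and 36 in Olfr1507. Library 2 had the most counts in each group, and in Olfr1507, where it was also the deepest library, libraries 2 and 3 stood at 1.98 and 2.01 normalised CPM. Olfr656 had 0, 537 and 0 counts in Olfr1507, 0, 54 and 0 in Olfr73 and 90, 8 and 0 in Olfr160. The near-identical Olfr679 and Olfr681 had 508.46 and 397.54 counts in Olfr73 library 2, and neither had more than 1 count in the other Olfr73 libraries. In Olfr160 library 2 they had 3.14 and 269.86 counts, so the counts of the pair did not keep a fixed ratio.

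Odorant receptor ligands are known for few members, and these were examined whatever their values. Olfr544, a receptor of azelaic acid, had 41, 62 and 8 counts in Olfr160, 0, 3 and 0 in Olfr73 and 0 in the Olfr1507 libraries. Its neighbour Olfr545, 91.2% identical in coding sequence, had 18, 0 and 0 counts in Olfr160, 8, 0 and 0 in Olfr73 and 0, 6 and 0 in Olfr1507. Olfr558, a receptor of short-chain fatty acids that is also expressed outside the nose, had 7, 20 and 137 counts in Olfr160 and 0 counts in the 6 other libraries. Olfr691 had 12, 77 and 5 counts in Olfr160, 0, 8 and 0 in Olfr73 and 0 in Olfr1507. Olfr543, the first gene of the cluster, had 55, 0 and 0 counts in Olfr160, 18, 0 and 0 in Olfr73 and 0 in Olfr1507. None of these 5 passed the filter on low counts, so they were not tested.

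Of the 118 members 57 passed the filter on low counts and were tested, and 61 were not. Most were kept because of their level in Olfr160, since 52 of the 57 were past the minimum in fewer than 3 libraries of the other groups together. The counts of calls below therefore describe members that were retained largely because they were high in Olfr160, and they are no independent support for a difference between groups. Each comparison shares libraries with the others. Changes are relative to edgeR's TMM scaling (trimmed mean of M values), under which the median log2 fold change of all genes tested was -0.14 when Olfr1507 was set against Olfr160, -0.15 when it was set against Olfr73, and -0.012 when Olfr73 was set against Olfr160. Scaled to the untagged receptors these medians were 4.58, 2.91 and 1.62, scaled to 20 olfactory transduction genes they were -1.72, -1.04 and -0.70, and by library size alone -0.56, -0.47 and -0.12. The share called over all genes was computed for the TMM fit at an adjusted p under 0.05 alone. Counts of members called under other settings, or at an unadjusted p, therefore have no such background beside them.

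The comparison of Olfr1507 with Olfr160 found 34 class I members lower in Olfr1507 and 0 higher at an edgeR adjusted p under 0.05. This is 59.6% of the 57 tested, beside 27.7% of all genes tested and 78.8% of the 631 other untagged receptors tested. Higher calls made up 20.7% of all genes and 0.158% of the other untagged receptors. At an unadjusted p under 0.05, 41 were lower and 0 higher, and DESeq2 also gave 0 higher. The share of all genes was not computed for these counts. The libraries of the groups did not overlap for 42 members that were lower, or 73.7%, beside 36.8% of all genes tested and 89.2% of the other untagged receptors. The median log2 fold change of the members was -6.38, or -5.58 with members at 0 counts set to their bound, beside -5.92 for the other untagged receptors. When libraries were scaled to the summed untagged receptors instead, 14 members were lower and 2 higher, with the median of all genes tested at 4.58. Leaving out an Olfr1507 library took the number of lower members to 18, 16 or 21 for libraries 1, 2 and 3, with the group then at 2 libraries.

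Among called members with no overlap and at least 1 normalised CPM in Olfr160, the 5 with the largest fitted changes had 0 counts in Olfr1507, where only a lower bound of the fold can be given. Some members with 1 or 2 Olfr1507 counts had ratios above all these bounds, such as Olfr629 at 405 (counting interval 72.3 to 16048) and Olfr653 at 274 (75.4 to 2267). Others were below the highest bound, such as Olfr582 at 97.6 (26.7 to 812). These and later counting intervals pool the reads of a group and leave out the spread between libraries. Of the 5, Olfr692, the last gene of the cluster, which has also been described in the vomeronasal organ, had 41, 124 and 12 counts in Olfr160 and 0 in the 3 Olfr1507 libraries. It was at least 57.9-fold lower in Olfr1507, with a floor of 3 counts for the whole group (edgeR adjusted p = 0.00980). Olfr668 had 11, 440 and 3 counts in Olfr160 and was at least 149-fold lower, but library 2 carried most of this. Olfr584 had 8.06, 57 and 170 counts and was at least 76.9-fold lower, Olfr686 had 116, 35 and 42 and was at least 63.1-fold lower, and Olfr610 had 77, 7 and 80 and was at least 53.7-fold lower. For all 5, each Olfr160 library was above each Olfr1507 library. Of these 5, only Olfr692 passed whichever library was left out. Without any 1 Olfr1507 library the adjusted p rose to 0.0773 to 0.0839 for Olfr668, 0.0584 to 0.0634 for Olfr584, 0.0817 to 0.0898 for Olfr686 and 0.0731 to 0.0806 for Olfr610. Without Olfr160 library 2 it was 0.131 for Olfr668 and 0.0613 for Olfr686, without library 3 it was 0.0662 for Olfr584, 0.0617 for Olfr686 and 0.0689 for Olfr610, and without library 1 it was 0.0846 for Olfr686 and 0.0718 for Olfr610.

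Abundant members with some counts in Olfr1507 were found on both sides of the threshold. Olfr592 stood at 9.43, 8.0 and 35.3 normalised CPM in Olfr160 and at 0.0539, 0.264 and 0.0558 in Olfr1507, and it passed (edgeR adjusted p = 0.00302). Olfr672 (adjusted p = 0.00529), Olfr552 (0.0112), Olfr598 (0.00381) and Olfr609 (0.0195), with 6 to 13 counts over the Olfr1507 libraries, passed too. Of the abundant members that did not pass, Olfr665 stood at 13.2, 21.3 and 9.46 in Olfr160 and at 0, 5.34 and 0 in Olfr1507 (log2 change -2.99 with an SE of 1.42, edgeR adjusted p = 0.110). Olfr550 stood at 9.24, 9.94 and 12.3 in Olfr160 and at 0.162, 0.297 and 3.74 in Olfr1507 (log2 change -2.93 with an SE of 1.46, edgeR adjusted p = 0.123). In both cases the groups did not overlap, and a single Olfr1507 library was far above its 2 others. Without that library, Olfr665 passed at an adjusted p of 0.000888 (library 2 left out) and Olfr550 at 0.0358 (library 3 left out). For Olfr685 the groups overlapped (log2 change -3.34 with an SE of 1.81, edgeR adjusted p = 0.154). Scaled to the untagged receptors, all 3 turned to positive values, 1.03 for Olfr665, 1.73 for Olfr550 and 1.15 for Olfr685. All 3 values were below the median of all genes tested under that scaling, which was 4.58.

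Between Olfr1507 and Olfr73, which share the GFP reporter, the test found 11 members lower in Olfr1507 and 0 higher. This is 19.3% of the 57 tested, beside 19.9% of all genes tested and 39.9% of the other untagged receptors, so the members' share was near that of all genes. Higher calls made up 14.5% of all genes and 0.158% of the other untagged receptors. At an unadjusted p under 0.05, 24 were lower and 1 higher, and DESeq2 called 22 lower and 1 higher. The share of all genes was not computed for these counts, so they cannot be read as a result about the members. For 8 members (14.0%) the libraries did not overlap, all lower in Olfr1507, beside 24.9% of all genes tested and 30.1% of the other untagged receptors. The median log2 fold change was -4.10, or -3.27 with members at 0 counts set to their bound, beside -4.04 for the other untagged receptors. The 11 were Olfr552, Olfr582, Olfr592, Olfr594, Olfr598, Olfr601, Olfr639, Olfr655, Olfr672, Olfr679 and Olfr690. For Olfr552, Olfr601 and Olfr679 the libraries of the groups overlapped. Library 2 held 342 of the 354 Olfr73 counts of Olfr552, and nearly all those of Olfr679. Scaled to the untagged receptors 11 members were lower and 6 higher, with the median of all genes tested at 2.91. Leaving out Olfr1507 library 1, 2 or 3 left 2, 5 or 2 lower members.

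Among these, Olfr690 and Olfr672 passed with each library left out in turn. Olfr690, a receptor of isovaleric acid, stood at 2.02, 8.09 and 1.12 normalised CPM in Olfr73 and at 0, 0.0990 and 0 in Olfr1507. With 243 and 3 counts over the groups its ratio was 82.5 (counting interval 27.9 to 403), at an edgeR adjusted p of 0.00382. Olfr672 stood at 28.3, 1.22 and 3.72 in Olfr73 and at 0, 0.231 and 0 in Olfr1507 (log2 change -6.77 with an SE of 1.48, edgeR adjusted p = 0.00782). All Olfr73 libraries were above all Olfr1507 libraries for both genes. Olfr639 had 26, 9 and 161 counts in Olfr73 and 0 in Olfr1507, and was at least 66.5-fold lower there. Olfr582 had 21, 3 and 429 counts against 0, 1 and 1, and Olfr594 had 92, 4 and 18 against 0, 1 and 0. The adjusted p of these 3 rose past 0.05 without any 1 Olfr1507 library (0.0628 to 0.0683 for Olfr639, 0.0563 to 0.0670 for Olfr582 and 0.0841 to 0.0934 for Olfr594). It also did so without Olfr73 library 3 for Olfr639 (0.0583) and Olfr582 (0.0522), and without Olfr73 library 1 for Olfr594 (0.0858).

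Olfr685, Olfr656 and Olfr681 were the most abundant members that did not pass in this comparison. Olfr656 was the only one of them with a higher mean in Olfr1507, at 5.90 ± 10.2 normalised CPM against 0.842 ± 1.46 (log2 change 2.82 with an SE of 2.5, edgeR adjusted p = 0.403). Without Olfr1507 library 2 this value turned to -7.17. Olfr681 had a log2 fold change of -4.10 (SE 2.39), which turned to 5.99 without Olfr73 library 2, the library that held all of its Olfr73 counts. Both turned values come from fits with no counts left in a group, so their sizes are not measured folds. Olfr685 had -3.05 (SE 1.80) with overlapping libraries.

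The comparison of Olfr73 with Olfr160, whose tagged receptors are both dorsal ones, found 7 members lower in Olfr73 and 0 higher. This is 12.3% of the 57 tested, beside 10.5% of all genes tested and 14.7% of the other untagged receptors, so here too the share was near the background. Higher calls made up 7.45% of all genes and 0.0% of the other untagged receptors. At an unadjusted p under 0.05, 14 were lower and 0 higher, and DESeq2 called 12 lower and 0 higher. The share of all genes was not computed for these counts, so they cannot be read as a result about the members. The libraries did not overlap for 15 members that were lower (26.3%), beside 23.8% of all genes tested and 37.2% of the other untagged receptors. The median log2 fold change was -1.83, with and without bounds, beside -1.74 for the other untagged receptors. Scaled to the untagged receptors 11 members were lower and 4 higher, with the median of all genes tested at 1.62. The number of lower members was 12 without Olfr73 library 1, 13 without Olfr73 library 2 and 4 without Olfr160 library 2.

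**Figure D4:**
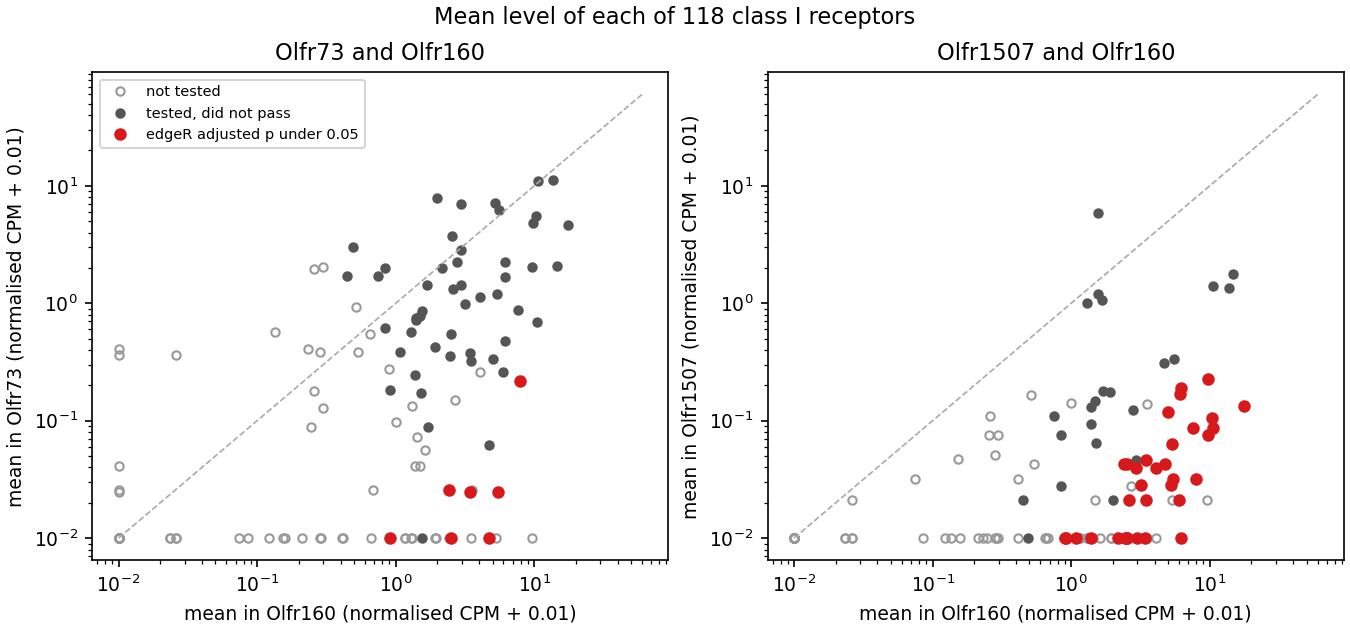
Mean level of each of the 118 class I members in Olfr160 (horizontal axis) against Olfr73 (left) and Olfr1507 (right), in normalised CPM plus 0.01 on log axes, with n = 3 libraries per group. Red points passed an edgeR adjusted p of 0.05 (7 on the left, 34 on the right), dark points were tested and did not pass, open points were not tested, and the dashed line marks equal levels.

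The 7 members were Olfr553, Olfr570, Olfr572, Olfr608, Olfr653, Olfr683 and Olfr692. They had counts in each Olfr160 library and few or none in the 6 other libraries, and all 7 were also lower in Olfr1507 than in Olfr160. Olfr683 stood at 2.89, 7.47 and 5.91 normalised CPM in Olfr160, at 0.0440, 0 and 0 in Olfr73 and at 0, 0.0660 and 0 in Olfr1507. With 1 count in Olfr73 its ratio was 364 (counting interval 65.0 to 14427), at an edgeR adjusted p of 0.00349. Olfr553 stood at 4.14, 7.15 and 2.89 in Olfr160 and had 0 counts in Olfr73, where it was at least 105-fold lower (edgeR adjusted p = 0.00629). In Olfr1507 it had 3 counts, all in library 2. Olfr653 stood at 3.80, 13.1 and 6.89 in Olfr160 and at 0.528, 0.0935 and 0 in Olfr73 (log2 change -5.21 with an SE of 1.13, edgeR adjusted p = 0.0158). It was the only member of the 7 with more than 3 counts in Olfr73.

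Olfr570 had 161, 21 and 40 counts in Olfr160 and 1, 0 and 0 in Olfr73, and Olfr608 had 40, 15 and 105 against 0, 0 and 1. Olfr572 had 13, 22 and 27 counts in Olfr160 and Olfr692 41, 124 and 12, and both had 0 counts in all 6 other libraries. They were the only members with 0 counts in those 6 libraries and at least 10 in each Olfr160 library. Olfr572 was at least 19.9-fold and Olfr692 at least 56.9-fold lower in Olfr73 (edgeR adjusted p = 0.0258 and 0.0265). Olfr692 did not pass without Olfr160 library 1 (adjusted p = 0.0683) or library 2 (0.0950). Olfr553, Olfr683, Olfr570 and Olfr608 passed with each library left out in turn. Over all 118 members, 24 had their 3 Olfr160 libraries above all 6 other libraries. This was not counted for all genes or for the other untagged receptors, so it is not read as a trait of class I.

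**Figure D5:**
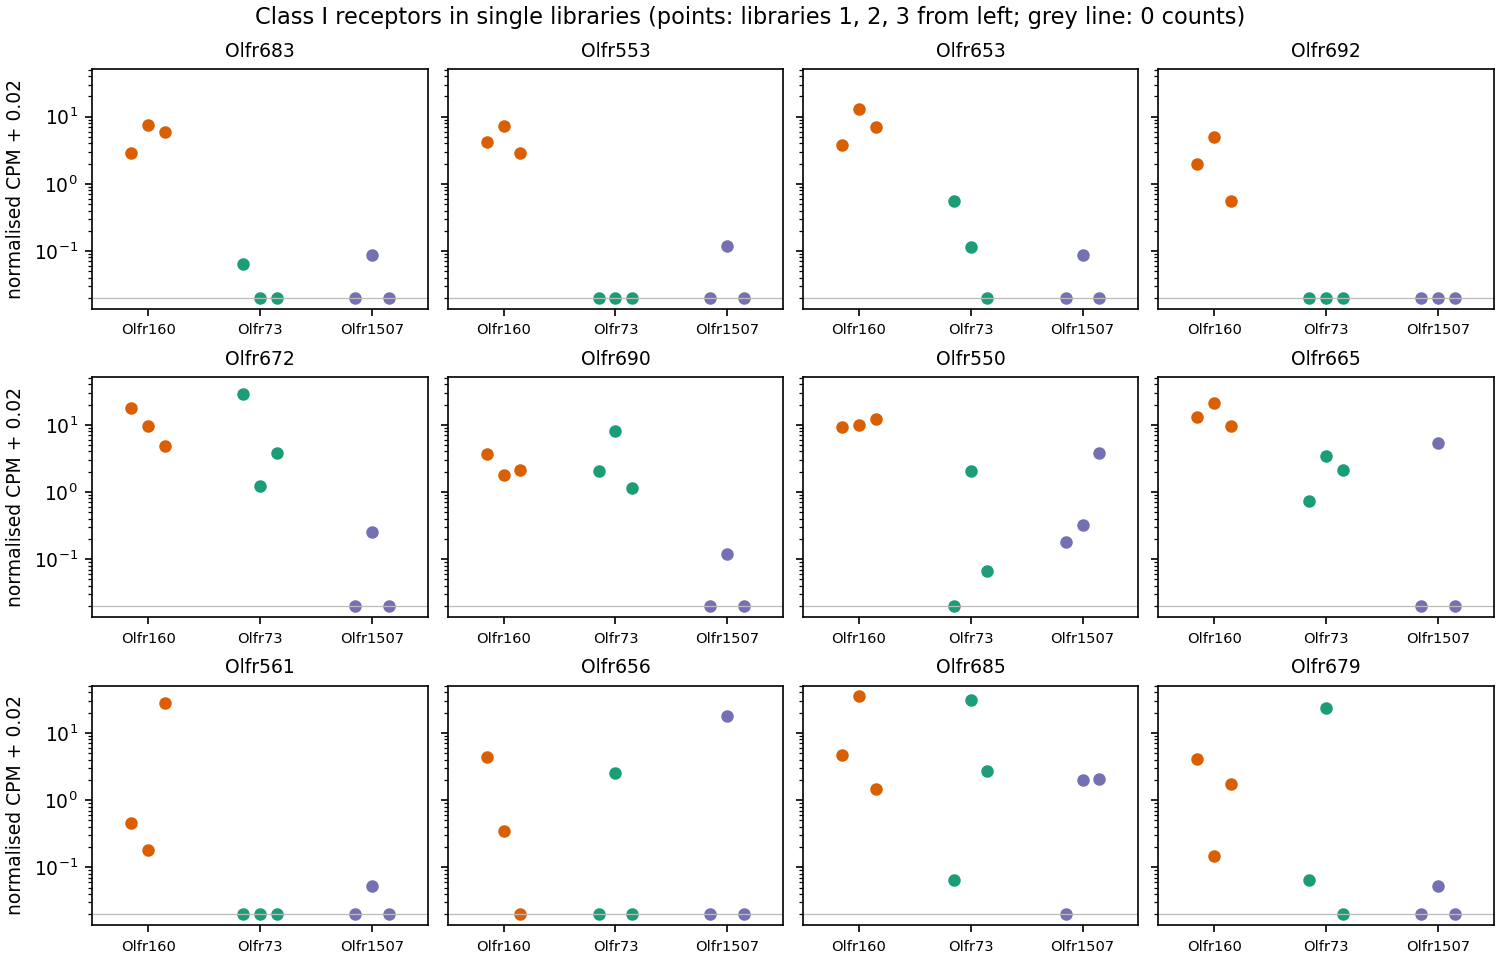
Level of 12 class I members in each library, in normalised CPM plus 0.02 on a log axis, with libraries 1, 2 and 3 from left to right in each group and the grey line at 0 counts. Olfr683, Olfr553, Olfr653 and Olfr692 sit above all other libraries in Olfr160, while Olfr561, Olfr656, Olfr685 and Olfr679 have a single library or a few far above the rest of their group.

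Among the abundant members, some overlapped between Olfr73 and Olfr160 and others did not. Olfr665 stood at 0.704, 3.37 and 2.09 normalised CPM in Olfr73, all below its Olfr160 libraries (log2 change -2.83 with an SE of 1.42, edgeR adjusted p = 0.194). Olfr550 (log2 change -3.93, adjusted p = 0.106) and Olfr640 (-3.13, adjusted p = 0.108) also had no overlap and did not pass, whereas Olfr653, described above, did. Olfr672 stood at 28.3, 1.22 and 3.72 normalised CPM in Olfr73 and at 17.6, 9.53 and 4.75 in Olfr160 (log2 change 0.061 with an SE of 1.03, edgeR adjusted p = 0.976). Its ranges overlapped, and the sign changed with the scaling. Olfr592 stood at 2.82, 0.327 and 10.8 in Olfr73 and 9.43, 8.0 and 35.3 in Olfr160 (log2 change -1.91 with an SE of 1.01, edgeR adjusted p = 0.215). Its log2 change turned to 0.060 scaled to the untagged receptors, where the median of all genes tested was 1.62. Olfr690 was 3.74 ± 3.79 in Olfr73 and 2.52 ± 0.998 in Olfr160, and with Olfr598, Olfr665 and Olfr672 it had at least 10 counts in each library of both groups. Olfr552 had 238, 226 and 234 counts in Olfr160, among the most even values of any member, but 10, 342 and 2 in Olfr73.

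Genes known to act in receptor choice, in receptor trafficking and in neuron identity were read from the same fit as a list of 20, all tested. In Olfr1507 over Olfr160, 7 were higher and 4 lower, in Olfr1507 over Olfr73, 7 were higher and 2 lower, and in Olfr73 over Olfr160, 3 were higher and 3 lower. Over all genes tested, the shares called higher and lower were 20.7% and 27.7%, 14.5% and 19.9%, and 7.45% and 10.5% in the same order of comparisons. The median log2 fold changes of the list were 0.28, 0.13 and 0.066. Bcl11b, a transcription factor known to hold back the choice of class I receptors, stood at 35.2 ± 3.14 normalised CPM in Olfr73, 40.0 ± 7.37 in Olfr1507 and 30.5 ± 11 in Olfr160. It passed in none of the comparisons under TMM (edgeR adjusted p = 0.237 to 0.615). Between Olfr1507 and Olfr160 its log2 change was -1.12 scaled to the transduction genes and 5.07 scaled to the untagged receptors, and both passed. The medians of all genes tested were then -1.72 and 4.58. Bcl11b thus stayed above the median, as under TMM (0.39 against -0.14). Rtp1, which carries receptors to the cell surface, stood at 922 ± 57.7, 2035 ± 266 and 649 ± 222 in the same order, and was higher in Olfr1507 than in Olfr160 (log2 change 1.65 with an SE of 0.24, edgeR adjusted p = 0.000538). Scaled to the transduction genes, a list that holds Rtp1 itself, its log2 change was 0.16 and did not pass, with the median of all genes tested at -1.72. The nuclear factor I genes Nfia and Nfib, tied to ventral receptor identity, were lowest in Olfr73. Nfib stood at 43.3 ± 4.70 in Olfr73, 181 ± 37.2 in Olfr1507 and 112 ± 18.2 in Olfr160, and Nfia at 18.7 ± 2.05, 79.1 ± 9.18 and 49.4 ± 9.10. For Olfr73 over Olfr160 their log2 changes turned to 0.22 (Nfia) and 0.27 (Nfib) scaled to the untagged receptors, below the median of 1.62 over all genes tested. For Olfr1507 over Olfr160 they were 0.68 and 0.69 under TMM but -0.93 and -0.92 scaled to the transduction genes. The medians of all genes tested were -0.14 and -1.72 under these scalings, so both genes stayed above them. Among chromatin proteins of the receptor clusters, Lbr and Cbx5 were lower in Olfr1507 than in Olfr160, with log2 fold changes of -0.57 (SE 0.14) and -0.94 (SE 0.11). Scaled to the untagged receptors these became 4.17 and 3.82, and both stayed below the median of all genes tested, which was 4.58.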

How the data were processed

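Polyadenylated RNA of 9 libraries, 3 per group, was sequenced by the authors after sorting and low-input library preparation, per the labels' protocols. The authors made the deposited expected counts per gene and a table of TPM, scaled for gene length and depth, and the submitters' processing notes name STAR 2.6.1, RSEM 1.3.1, DESeq2 and the build mm10. Which annotation was used is not given in the sources used here. Both tables name the groups by older receptor names, M72 for Olfr160, MOR174 for Olfr73 and MOR28 for Olfr1507, which was checked against the tagged receptors' counts. Duplicates are mentioned in the series text, and 3 libraries of each line are analysed here.

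After rounding, the counts were fitted in edgeR 4.0.16 under R 4.3.3 (filterByExpr by group, TMM, robust quasi-likelihood F test, a means model over all 9 libraries). Benjamini-Hochberg adjustment ran over all 16399 genes tested, at a threshold of 0.05. The SE is the log2 fold change over the square root of F. The fit was also run on counts simulated from its own spread estimates. That run was not set up to mimic members near 0 counts in a whole group, and no result here rests on it. Levels between genes were compared by TPM. Where a group had 0 counts in the main fit, the fold was computed against a floor of 3 counts for the whole group. No floor was set for fits with a library left out. Where it had 1 to 3 counts, the ratio is given with an exact 95% counting interval. This interval pools the reads of a group, so it does not hold the spread between libraries. Coding sequences of GENCODE M21 were aligned end to end with edlib 1.3.9 in Python 3.11.15.

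The members, gene lists and alternatives were chosen with earlier results of these data known. By rule, the text names the 6 members with the highest mean TPM per group. Per comparison it names up to 5 called members with the largest fitted change, no overlap and at least 1 normalised CPM where higher, and the 3 most abundant members that did not pass. It adds Olfr543, Olfr544, Olfr545, Olfr558, Olfr690, Olfr691 and Olfr692. Other members that are named, such as Olfr552, Olfr566, Olfr609, Olfr611, Olfr612, Olfr629 and Olfr653, and the members called in full lists, were chosen after their values were seen. Alternatives were other scalings, filters, DESeq2 1.42.0, limma 3.58.1 (voom, and trend on TPM), the replicate number as a block, and leaving out each library.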

Additional observations from a re-analysis of the deposited data

How the results depend on the processing

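The numbers of class I members called depended on the settings. The share called over all genes was computed for the main setting alone, so the numbers under other settings have no such background. For Olfr1507 over Olfr160, the 34 lower members became 14 (with 2 higher) when scaled to untagged receptors, 21 with limma-voom and 12 at an adjusted p of 0.01, and ranged from 16 to 28 with 1 library left out. For Olfr1507 over Olfr73, the 11 lower members became 27 when scaled to the olfactory transduction list, 22 (with 1 higher) with DESeq2, 1 with limma-voom, 3 and 4 with limma-trend on log2(TPM + 1) and log2(TPM + 0.1) and 2 at an adjusted p of 0.01. They ranged from 2 to 16 with 1 library left out, where the higher members ranged from 0 to 1, and scaling to untagged receptors gave 6 higher members. For Olfr73 over Olfr160, the 7 lower members became 13 with transduction scaling, 11 (with 4 higher) with untagged scaling, 14 without a filter, 3 with a filter of 1 CPM in 3 libraries, 12 with DESeq2, 13 with limma-voom, 16 and 14 (each with 1 higher) with limma-trend on TPM and 2 at an adjusted p of 0.01, and ranged from 4 to 13 with 1 library left out. With the replicate number as a block, the lower members numbered 34 in Olfr1507 against Olfr160, 6 in Olfr1507 against Olfr73 and 6 in Olfr73 against Olfr160. In their deviations from the group means, same-numbered libraries correlated at -0.193 to 0.130 and differently numbered ones at -0.114 to 0.108. For Olfr73 with Olfr160 the same-numbered values were 0.043, 0.053 and 0.130, and the others ran from -0.114 to 0.073. With 3 libraries per group this check cannot decide whether the numbers pair the samples. The class I share in Olfr73 fell from 4.94% to 3.89% without the top member of each library. Counting members with at least 1 count gave 43.7 in Olfr73 (28 at 10 counts) and 28.7 in Olfr1507 (5.67 at 10 counts), where 0.5 CPM gave 3.67 and leaving out a library 2.5 to 8. Of the named log2 fold changes, those of Olfr665, Olfr685 and Olfr550 in Olfr1507 over Olfr160 turned to 1.03, 1.15 and 1.73 with untagged scaling. Under that scaling the median of all genes tested was 4.58 in this comparison and 1.62 in Olfr73 over Olfr160. In Olfr1507 over Olfr73, Olfr656 turned to -7.17 without Olfr1507 library 2 (up to 10.05 with another library left out) and Olfr681 to 5.99 without Olfr73 library 2 (down to -7.54). The fits that gave -7.17 and 5.99 left a group without counts, so these sizes are not measured folds. In Olfr73 over Olfr160, Olfr592 turned to 0.060 and Olfr685 to 1.19 with untagged scaling, and Olfr685 also to 0.29, 0.17 and 1.86 without Olfr73 library 1, Olfr73 library 3 or Olfr160 library 2, in a range from -3.36 upwards. Olfr672 turned to -0.019 with RLE size factors, -0.057 with library size alone, -0.75 with transduction scaling, -0.45 with the replicate block, -0.021 with DESeq2, -0.81 with limma-voom, -0.72 and -0.84 with limma-trend on log2(TPM + 1) and log2(TPM + 0.1), and -2.10, -0.012 and -0.29 without Olfr73 library 1, Olfr160 library 2 or Olfr160 library 3, in a range up to 0.63. Over the named results, 377 alternative values kept direction and call, 61 no longer passed, 13 newly passed and 21 changed sign. The cause of these changes was not tested, except that a stricter threshold calls fewer genes by construction. Leaving out a library moved the counts in both directions. Depth limits the low values, since 3 counts correspond to up to 0.167 normalised CPM.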

Other observations

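The chromosome 7 interval also held 38 Olfr symbols that fall outside the members' numbering block or carry a suffix, namely 9 with other numbers and 29 with a pseudogene suffix. Of the former, Olfr78, a receptor of short-chain fatty acids that is also expressed in the carotid body and kidney, had 115.82, 14 and 62 counts in the Olfr160 libraries, 16, 1 and 0 in Olfr73 and 0, 10 and 0 in Olfr1507. Its highest libraries were in Olfr160, but the ranges of the groups overlapped. Olfr243 had 2, 163 and 59 counts in Olfr160, 33.31, 3 and 5 in Olfr73 and 0, 6 and 4 in Olfr1507. It is 97.5% identical in coding sequence to the member Olfr628.

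The receptors Olfr64 to Olfr69 neighbour the beta-globin genes. Olfr67 had 5, 16 and 74 counts in Olfr160, 0, 171 and 0 in Olfr73 and 0 in Olfr1507, so that Olfr73 library 2 alone carried its level in that group. Olfr68 had 36, 82.8 and 0 counts in Olfr160, 0, 0 and 20 in Olfr73 and 0, 1 and 0 in Olfr1507, and it was called lower in Olfr1507 than in Olfr160 just inside the threshold (edgeR adjusted p = 0.049997), with overlapping libraries. Olfr65 had 42, 52 and 6 counts in Olfr160 and 1 to 4 in the Olfr73 libraries. Olfr64, Olfr66 and Olfr69 had 0 counts in all Olfr73 and Olfr1507 libraries, and up to 3, 45 and 13.2 counts in Olfr160. With all receptors of the interval counted, the share of untagged receptor counts was 3.77% to 4.95% in Olfr160, 4.23% to 6.13% in Olfr73 and 2.80% to 8.48% in Olfr1507, and these ranges overlapped too.

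The 2 members whose closest relative lies outside the cluster had few counts. Olfr657 had 30 counts in Olfr160 library 2 and 2 in Olfr1507 library 2, and 0 in the other libraries. Olfr658 had 50, 11 and 3 counts in Olfr160, 6, 0 and 0 in Olfr73 and 0, 12 and 0 in Olfr1507. The member Olfr566, 94.7% identical to Olfr583, which had 0 counts in all libraries, had 4, 296 and 2 counts in Olfr160, 17, 0 and 0 in Olfr73 and 0 in Olfr1507.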
